A study of Mus musculus with 19 samples.

Results

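Prostaglandins, prostacyclin, thromboxane and the leukotrienes are short-lived signalling lipids made from arachidonic acid, and 10 genes for the enzymes that make them were followed here in the mouse aorta: Ptgs1, Ptgs2, Ptges, Ptgis, Alox5, Alox5ap, Alox15, Lta4h, Ltc4s and Hpgds. The genes were chosen by name for their place in the pathway, with earlier results of these data known. Each was read from its brightest probe set that carries exactly 1 gene symbol. Of the 10 genes, 9 had such a probe set, 1 each, among the 30142 genes measured, and Ptgs1 was not analysed here. Expression was measured on 19 Affymetrix Clariom D arrays, 1 mouse per array, in aorta from below the kidneys. The mice were males and females of the inbred strain C57BL/6J, and the labels name no engineered allele. At 10 weeks of age the clamped aorta was filled for 5 min at 120 mmHg either with saline alone (sham) or with type I porcine pancreatic elastase in saline at 2.5 U/mL (PPE), which produces an abdominal aortic aneurysm, and tissue was taken 7 days after surgery. There were 5 sham and 7 PPE mice among the males and 3 sham and 4 PPE mice among the females. The segment held all layers of the wall together with whatever cells had entered it, and PPE was compared with sham within the 12 male and within the 7 female arrays.

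Arachidonic acid is cut from membrane phospholipids and then enters one of several branches. The cyclooxygenases, Ptgs1 and the inducible Ptgs2, turn it into prostaglandin H, from which separate synthases make prostaglandin E (Ptges), prostacyclin (Ptgis), prostaglandin D (Hpgds) and thromboxane (Tbxas1). In the arterial wall prostacyclin relaxes smooth muscle and restrains platelets, and its synthase is found in vascular smooth muscle and endothelium. In the other main branch the 5-lipoxygenase Alox5, helped by the membrane protein Alox5ap that presents arachidonic acid to it, makes leukotriene A, which Lta4h turns into the neutrophil attractant leukotriene B and Ltc4s into the cysteinyl leukotrienes. Alox15 is a lipoxygenase of eosinophils and of some resident macrophages.

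The values are log2 intensities, so that a difference of 1 is a doubling, and a level can be compared between arrays for 1 gene but not between genes. Array medians were 6.17 to 6.31 in females and 5.61 to 5.85 in males, which is why levels were not compared between the sexes. Olfactory receptor genes, which the aorta is not known to use, had a 95th percentile of 5.55 to 6.57 on these arrays and served as the background level. Ptgs2, Ptges, Ptgis, Alox5ap, Lta4h and Hpgds lay above that level of their own array on all 19 arrays, Alox5 on 16, Alox15 on 6 and Ltc4s on 3, so that the values of Alox15 and Ltc4s are mostly those of background. Adipocyte genes stood apart on the array of male sham mouse 4, where the mean of 7 adipocyte markers was 12.50 against 7.47 to 8.32 on the other male sham arrays. Male sham mice 4 and 5 and male PPE mouse 1 had the highest array medians among the males (5.83, 5.78 and 5.85, others 5.61 to 5.73) and the highest background levels (6.03, 6.10 and 5.97, others 5.55 to 5.72). The 3 members that passed the test in males, and Ptgs2 and Hpgds, are also given without these 3 arrays.

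In males, 3 of the 9 measured genes changed 7 days after elastase. Ptgis fell 2.81-fold, Alox5ap rose 3.65-fold and Alox5 rose 1.32-fold. In females only Ptgis passed the test, with a fall of 2.12-fold. The test was limma's moderated test over all 19 arrays, with Benjamini-Hochberg adjustment over 30142 genes and a call at an adjusted p below 0.05. The share of members called in males was 33.3%, beside 19.7% of all genes (9.67% higher and 9.98% lower), and in females it was 11.1%, beside 4.22% of all genes (2.77% higher and 1.45% lower). With 9 members these shares rest on 3 genes and on 1 gene. Many of all genes lay at background, while all 9 members passed a filter for values above the background level in 3 arrays. Of the 18706 genes that passed it, tested on their own, 5984 were called in males and 1501 in females, shares closer to those of the members. The shares of the members are therefore not read as an excess of calls. The median difference between PPE and sham over the 9 genes was 0.37 in males, where it was 0.01 over all genes, and 0.16 in females, where it was -0.02 over all genes. The PPE and sham values did not overlap for 3 members in males (9.37% of all genes) and for 2 in females (19.8% of all genes).

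**Figure D1:**
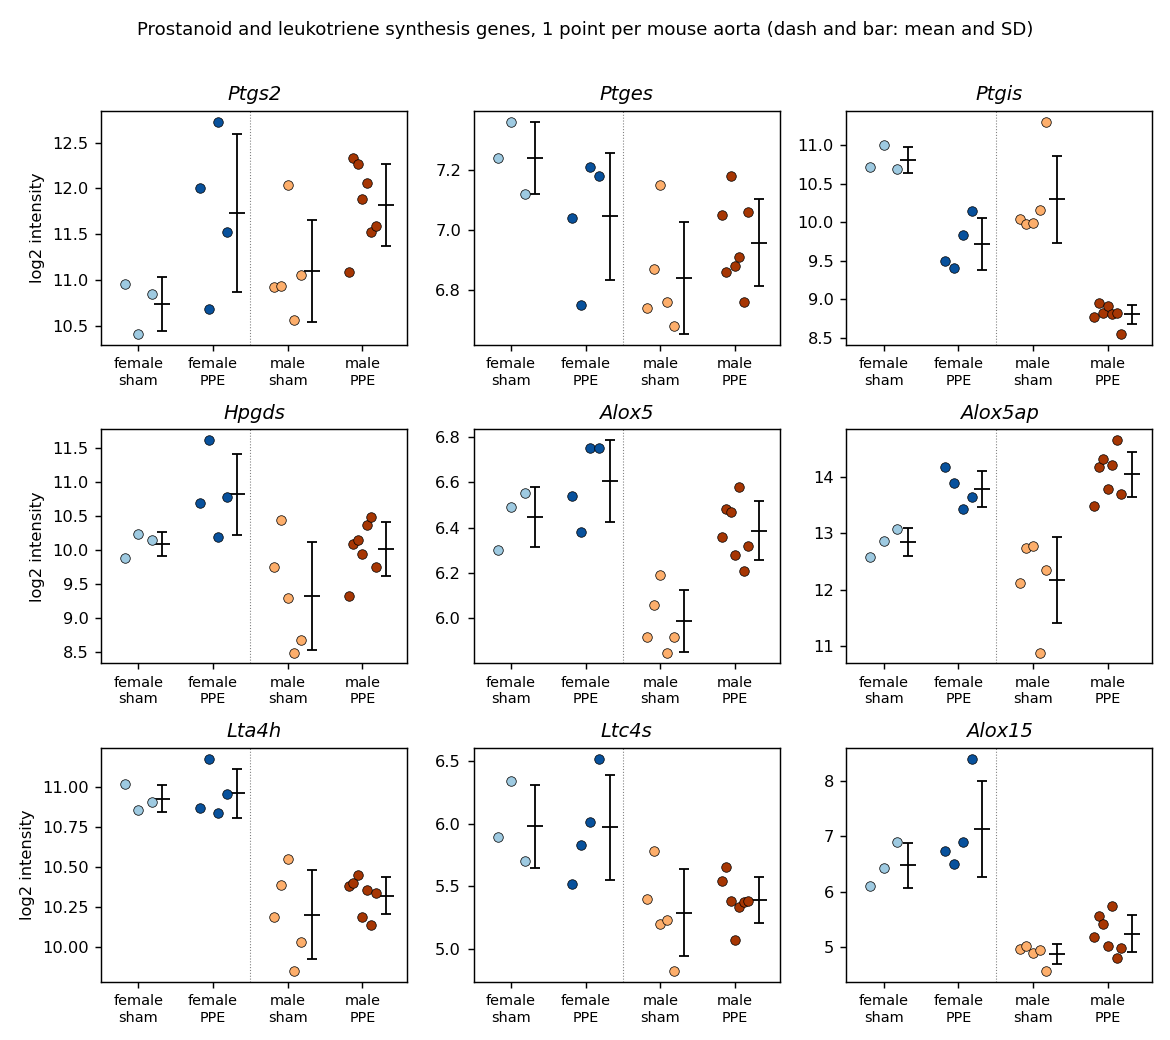
Log2 intensity (vertical axis) of the 9 measured prostanoid and leukotriene synthesis genes on each of the 19 arrays, 1 point per mouse, with a dash at each group mean and a bar of 1 SD to either side. Ptgis lay lower on every PPE array than on any sham array of the same sex, and Alox5ap lay higher on every PPE array than on any sham array of the same sex.

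Ptgs2, the inducible cyclooxygenase, stood at 10.92, 10.94, 12.04, 10.56 and 11.05 in male sham mice 1 to 5, and between 11.09 and 12.33 with a median of 11.89 in the 7 male PPE mice. In females it was 10.96, 10.41 and 10.85 in sham and 12.00, 10.68, 12.73 and 11.52 in PPE mice. Male sham mouse 3 lay within the range of the PPE mice, and 1 female PPE mouse, at 10.68, lay within the range of the sham mice. The difference was 0.72 ± 0.31 (SE, 95% interval 0.07 to 1.37, limma adjusted p = 0.122) in males and 0.99 ± 0.40 (0.15 to 1.84, adjusted p = 0.223) in females, so that it passed the test in neither sex. In males the two-sided exact permutation test of this gene alone gave p = 0.0328. Of the 19 limma fits that left out 1 array, 1 passed in males, that without male sham mouse 3 (difference 0.95, adjusted p = 0.0306). Without male sham mouse 4 the difference was 0.58 (adjusted p = 0.266). Without male sham mice 4 and 5 and male PPE mouse 1 together it was 0.64 (0.254). Male sham mouse 3 also had the highest mean of 9 neutrophil markers among the male sham mice, 7.88 against 6.74 to 7.16, and the part of this in its Ptgs2 value was not tested.

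Ptges, the inducible synthase of prostaglandin E, showed overlapping values in both sexes. The difference was 0.12 ± 0.10 (SE, n = 5 and 7, adjusted p = 0.49) in males and -0.20 ± 0.13 (n = 3 and 4, adjusted p = 0.569) in females by limma. Its values ran from 6.68 to 7.18 over the male arrays and from 6.75 to 7.36 over the female arrays.

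Ptgis, the synthase of prostacyclin, was the member that fell in both sexes. In male sham mice 1 to 5 it stood at 10.05, 9.98, 9.99, 10.16 and 11.31, and in the male PPE mice it ranged from 8.55 to 8.95 with a median of 8.82. In female sham mice it was 10.72, 11.01 and 10.70, and in female PPE mice 9.50, 9.41, 9.84 and 10.15. No PPE mouse reached the lowest sham mouse of its sex, and male sham mouse 5 lay more than 1 log2 unit above the other male sham mice. The fall was -1.49 ± 0.19 (SE, 95% interval -1.89 to -1.09, adjusted p = 1.89e-05) in males and -1.08 ± 0.25 (-1.61 to -0.56, adjusted p = 0.0178) in females by limma. Only 0.697% of all genes fell further in males and 0.488% in females. The two-sided exact permutation test gave p = 0.00253 in males and p = 0.0571 in females, in each case the smallest value that the 792 and the 35 possible splits of the mice allow. Without male sham mouse 5 the male difference was -1.24 (adjusted p = 5.36e-06). The call in females was lost when female sham mouse 1 (difference -1.13, adjusted p = 0.0563), female sham mouse 2 (-0.98, 0.104), female PPE mouse 1 (-1.01, 0.0598) or female PPE mouse 2 (-0.98, 0.0581) was left out.

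Markers of smooth muscle moved in the same direction as Ptgis. All 8 smooth muscle markers measured fell in males and 6 of 8 in females, among them Smtn, a cytoskeletal protein of contractile cells, by -1.78 and -0.82, and Lmod1, an actin nucleator of smooth muscle, by -2.35 and -1.43. The mean of the 8 markers was 12.30 to 13.43 in male sham and 10.64 to 11.68 in male PPE mice, and 12.84 to 13.14 in female sham and 11.47 to 12.14 in female PPE mice. Male sham mouse 5, singled out after its values were seen, had both the highest Ptgis value of the male sham mice and the highest smooth muscle mean, 13.43. The other male sham mice had smooth muscle means of 12.30 to 13.18 with Ptgis between 9.98 and 10.16. The count in females ranged from 0 to 7 of the 8 when single arrays were left out, with 0 reached without female sham mouse 2. Of 8 markers of endothelium, the other source of prostacyclin, 5 fell in males and 0 in females, with Tek, a receptor of endothelial cells, at -0.89 in males. Their mean was 10.72 to 10.82 in male sham and 10.15 to 10.53 in male PPE mice, and 10.94 to 11.41 in female sham and 10.81 to 11.10 in female PPE mice. Of 7 fibroblast markers, 5 fell and 1 rose in males and 2 fell in females, and their mean was 13.57 to 14.42 in male sham and 13.59 to 13.95 in male PPE mice, and 14.58 to 14.63 in female sham and 13.97 to 14.33 in female PPE mice. The fibroblast count in females ranged from 0 to 2 when single arrays were left out. The part of each of these in the fall of Ptgis was not tested, and in whole tissue fewer cells of a type and less RNA per cell cannot be told apart.

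Hpgds, the synthase of prostaglandin D found in mast cells and macrophages, stood at 9.74, 10.43, 9.29, 8.49 and 8.68 in male sham mice and between 9.32 and 10.48 with a median of 10.09 in male PPE mice. In females it was 9.88, 10.23 and 10.14 in sham and 10.68, 11.61, 10.18 and 10.78 in PPE mice. Groups overlapped in both sexes. The difference was 0.69 ± 0.30 (SE, 95% interval 0.06 to 1.32, adjusted p = 0.13) in males and 0.73 ± 0.39 (-0.09 to 1.55, adjusted p = 0.431) in females by limma. Without male sham mouse 2, whose Hpgds value was the highest of the male sham mice and whose macrophage marker mean was the highest as well at 12.57, the male difference was 0.96 with an adjusted p of 0.0183. Of the 19 fits that left out 1 array, this was the 1 that passed in males. The male difference was 0.48 without male sham mouse 4 (adjusted p = 0.328) and 0.52 without male sham mouse 5 (0.307). Without male sham mice 4 and 5 and male PPE mouse 1 together it was 0.31 (0.5). Among the females the highest Hpgds value, 11.61 in PPE mouse 2, came from the array with the highest macrophage marker mean, 13.92. Of 9 mast cell markers, 1 rose in males, the stem cell factor receptor Kit by 0.25 (adjusted p = 0.0429), and 0 changed in females. The call of Kit was lost in 11 of the 19 fits that left out 1 array. The mast cell mean was 5.80 to 6.58 in male sham, 5.94 to 7.06 in male PPE, 7.47 to 8.66 in female sham and 6.69 to 8.03 in female PPE mice, and Tpsab1, a mast cell tryptase, and Fcer1a, a chain of the high-affinity IgE receptor, were above background on no array. The part of either cell type in the Hpgds values was not tested.

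**Figure D2:**
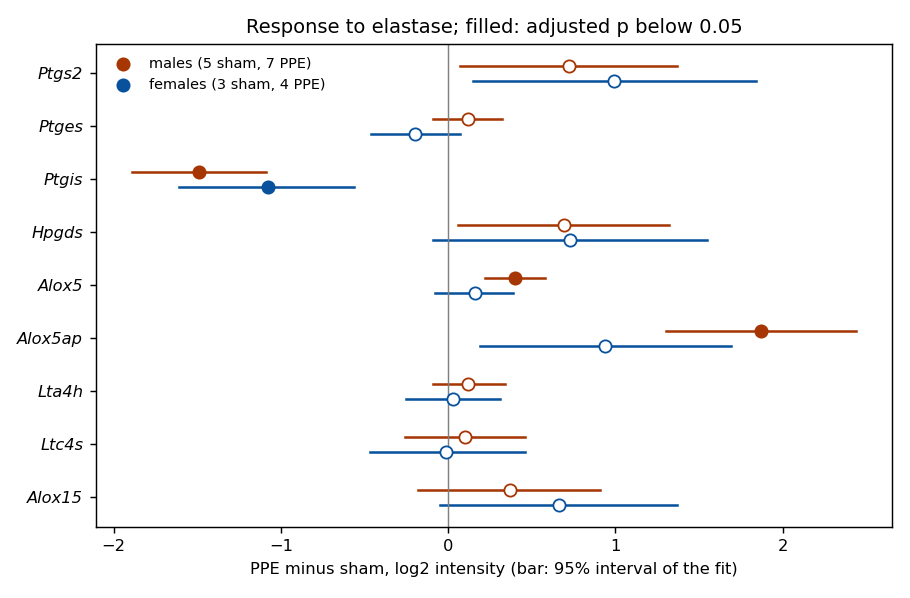
PPE minus sham difference (log2, horizontal axis) of each of the 9 genes in males and in females, with 95% intervals from limma. Filled points passed an adjusted p of 0.05, and these are Ptgis, Alox5 and Alox5ap in males and Ptgis in females.

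Alox5ap, which hands arachidonic acid to 5-lipoxygenase, was the member that rose most in males. It stood at 12.12, 12.74, 12.77, 10.89 and 12.35 in male sham mice 1 to 5 and ranged from 13.48 to 14.65 with a median of 14.17 in male PPE mice. In females it was 12.59, 12.87 and 13.08 in sham and 14.18, 13.89, 13.43 and 13.65 in PPE mice. Every PPE mouse lay above every sham mouse of its sex. The difference was 1.87 ± 0.27 (SE, 95% interval 1.30 to 2.44, adjusted p = 6.93e-05) in males and 0.94 ± 0.36 (0.19 to 1.69, adjusted p = 0.18) in females by limma. In males 0.647% of all genes had a larger difference. The exact permutation test gave its smallest two-sided value in both sexes, p = 0.00253 in males and p = 0.0571 in females. The adjusted p in females was 0.0348 without male sham mouse 4, which had the lowest Alox5ap value of the males and adds to the spread that the groups share in the fit, and 0.0278 in a fit of the female arrays alone. Alox5ap in females passed in 4 of the 29 alternative fits, and in 1 of the 19 of these that left out 1 array (adjusted p up to 0.432).

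Alox5 itself, the 5-lipoxygenase, rose in males by 0.40 ± 0.09 (SE, 95% interval 0.22 to 0.58, limma adjusted p = 0.00231). The values were 5.92, 6.06, 6.19, 5.85 and 5.92 in male sham mice and 6.21 to 6.58 with a median of 6.36 in male PPE mice, without overlap, and the exact permutation test gave p = 0.00253. In females the values were 6.30, 6.49 and 6.55 in sham and 6.54, 6.38, 6.75 and 6.75 in PPE mice. They overlapped, and the difference was 0.16 ± 0.11 (-0.08 to 0.39, adjusted p = 0.61). The gene lay near the background level throughout, where fold changes on an array are compressed, so its 1.32-fold rise and the 3.65-fold rise of Alox5ap are not set against each other. Alox5 and Alox5ap remained called in males in each of the 19 fits that left out 1 array. Without male sham mice 4 and 5 and male PPE mouse 1 together, the male differences were 1.59 for Alox5ap (adjusted p = 0.000109), 0.33 for Alox5 (0.0341) and -1.20 for Ptgis (3.75e-05).

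Of the 3 genes that changed in males, the promoter of Alox5 was the one for which a RefSeq sequence was at hand. It is shown with the GC box, the binding motif of Sp1-type factors, marked. It was chosen after the values had been seen. The 250 bases before the start of the gene lie at chr6:116461179-116461428 of GRCm38.p6 on the minus strand, printed 5′ to 3′ in the direction of the gene with the GC box GGGCGG in capitals.
Alox5: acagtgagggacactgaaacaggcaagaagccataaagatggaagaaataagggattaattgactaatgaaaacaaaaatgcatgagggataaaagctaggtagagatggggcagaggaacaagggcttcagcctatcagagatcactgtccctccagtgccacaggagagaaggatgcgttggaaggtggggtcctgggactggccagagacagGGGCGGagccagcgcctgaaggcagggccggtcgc
The motif was searched on both strands and occurred 1 time, on the strand of the gene and beginning 35 bases before its start. The same letters were found on either strand in 10756 of 32851 promoter windows of this length (32.7%), so a match is common and is a description of the sequence only. Ptgis lies at chr2:167203194-167252150 and Alox5ap at chr5:149265004-149288153 of the same build.

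Markers of macrophages and neutrophils moved in the same direction as Alox5ap and Alox5. Of 8 macrophage markers, 7 rose in males and 1 in females, the Fc receptor Fcgr1 by 3.31 and 1.86 and the complement gene C1qa by 1.47 in males. The call of Fcgr1 in females, the only one of this list there, was lost without any 1 of female sham mice 1, 2 and 3 and female PPE mice 1 and 3. The macrophage mean was 10.69 to 12.57 in male sham and 12.90 to 13.89 in male PPE mice, and 12.68 to 12.96 in female sham and 13.28 to 13.92 in female PPE mice. Of the male mice, sham mouse 4 had the lowest macrophage mean, 10.69, and the lowest Alox5ap value, 10.89, and PPE mouse 6 had the highest of both, 13.89 and 14.65. Of 9 neutrophil markers, 7 rose in males and 5 in females, among them the granulocyte growth factor receptor Csf3r by 2.49 and 2.09, and their mean was 6.74 to 7.88 in male sham and 8.41 to 9.41 in male PPE mice, and 6.84 to 7.19 in female sham and 8.49 to 9.22 in female PPE mice. All 7 T and NK cell markers rose in males and 6 of 7 in females, with a mean of 6.41 to 6.59 in male sham and 7.96 to 8.85 in male PPE mice. The part of these cells in the Alox5ap and Alox5 values was not tested.

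**Figure D3:**
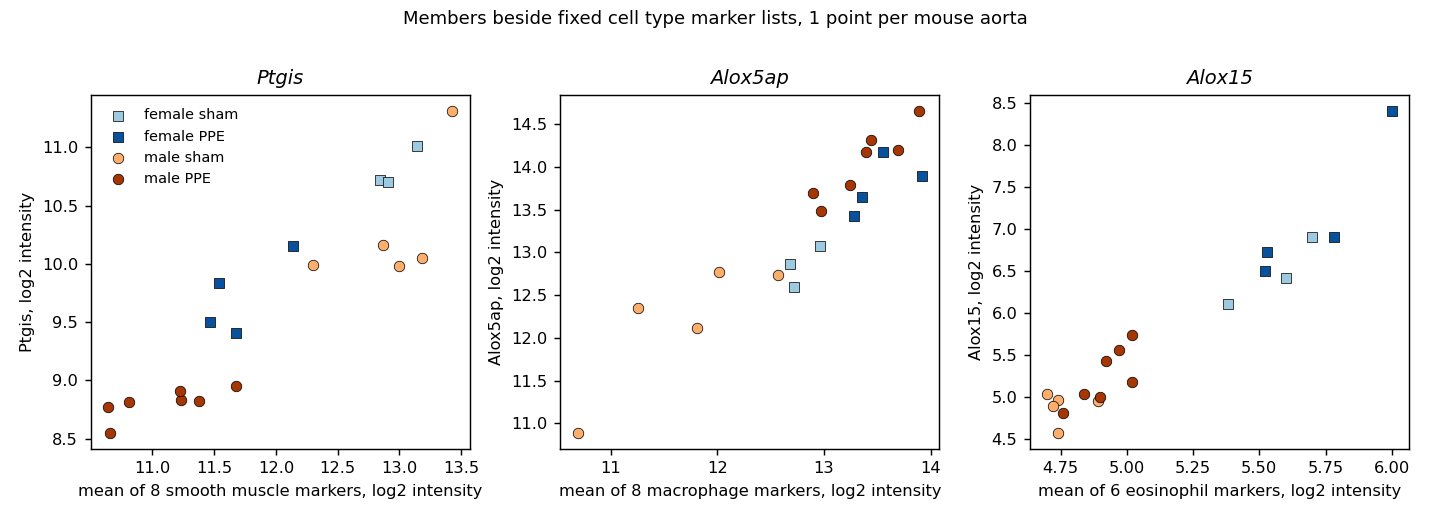
Log2 intensity of Ptgis, Alox5ap and Alox15 (vertical axes) against the mean log2 intensity of 8 smooth muscle, 8 macrophage and 6 eosinophil markers (horizontal axes), 1 point per mouse and 1 colour per group. PPE and sham mice of a sex are apart on both axes in the first 2 panels and overlap on both in the third; points of 1 array share its overall signal, and no test was made.

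Lta4h, which turns leukotriene A into leukotriene B, and Ltc4s, which turns it into leukotriene C, passed the test in neither sex. For Lta4h the difference was 0.12 ± 0.10 (SE, adjusted p = 0.497) in males and 0.03 ± 0.13 (adjusted p = 0.959) in females by limma, with values from 9.85 to 10.55 over the male and from 10.84 to 11.18 over the female arrays. For Ltc4s it was 0.10 ± 0.17 (adjusted p = 0.765) in males and -0.01 ± 0.22 (adjusted p = 0.994) in females. Its values, 4.82 to 5.78 in males and 5.52 to 6.52 in females, were mostly at background, and a change there could have gone undetected.

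Alox15 was at background on 13 of the 19 arrays. It was above background in 0 of 5 sham and 1 of 7 PPE males, and in 1 of 3 sham and 4 of 4 PPE females. In males it was 4.96, 5.03, 4.89, 4.95 and 4.57 in sham and 4.80 to 5.74 with a median of 5.18 in PPE mice (difference 0.37 ± 0.26, limma adjusted p = 0.394). In females it was 6.10, 6.42 and 6.90 in sham and 6.73, 6.50, 6.90 and 8.40 in PPE mice (0.66 ± 0.34, adjusted p = 0.394), so that 1 mouse, female PPE mouse 4, stood above the rest, and without it the female difference was 0.24. On the same array 3 of 6 eosinophil markers had their highest value of the 7 female arrays: Ccr3, the eotaxin receptor, at 7.13, Siglecf at 7.02 and the interleukin 5 receptor Il5ra at 5.84. Epx and Prg2, which encode eosinophil granule proteins, did not, and with Ear6 and Il5ra they were above background on no array. The 3 male mice with the highest Alox15, PPE mice 2, 3 and 5 at 5.56, 5.42 and 5.74, had Ccr3 at 5.44, 5.72 and 5.22, where the male sham mice had 4.43 to 4.66. Male PPE mouse 7 had Ccr3 at 5.23 with Alox15 at 4.99, within the sham range. Of these 4 mice Ccr3 was above background in PPE mouse 3 only, and Alox15 in PPE mouse 5 only. In PPE mice 2, 3 and 5 Epx, Prg2, Ear6 and Il5ra did not exceed the highest male sham value. Siglecf did, at 6.13, 6.06 and 6.08 against 6.01, but its highest male value, 6.25, was in PPE mouse 1, with Alox15 at 5.18. These arrays and genes were singled out after their values were seen. Of the 6 eosinophil markers, 1 rose in males (Siglecf, by 0.31, a call lost in 8 of the 19 fits that left out 1 array) and 0 changed in females. The list mean was 4.70 to 4.89 in male sham, 4.76 to 5.02 in male PPE, 5.38 to 5.70 in female sham and 5.52 to 6.00 in female PPE mice. The part of eosinophils in the Alox15 values was not tested.

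The response of males was set against that of females directly, as the male minus the female PPE effect. None of the 9 members passed this test, with 0 at an unadjusted p below 0.05 and a lowest adjusted p of 0.508 by limma (0.541% of all genes were called). The difference of responses was 0.93 (95% interval -0.02 to 1.87) for Alox5ap, -0.41 (-1.07 to 0.25) for Ptgis, 0.24 (-0.06 to 0.53) for Alox5, -0.27 (-1.34 to 0.79) for Ptgs2 and -0.04 (-1.08 to 0.99) for Hpgds. For Ptges it was 0.31 (-0.03 to 0.65), for Alox15 -0.29 (-1.19 to 0.60), for Lta4h 0.09 (-0.27 to 0.44) and for Ltc4s 0.11 (-0.48 to 0.70). That Alox5 and Alox5ap were called in males and not in females thus does not show that the sexes responded differently, nor do these intervals show that they responded alike.

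The other genes of the pathway were read from 9 lists of 57 measured genes. In males 14 rose and 7 fell (36.8%, beside 19.7% of all genes), and in females 4 rose and 0 fell (7.02%, beside 4.22%). Some of the 57 genes and many of all genes lay at background, so these shares are not read as an excess of calls. The median difference over the 57 genes was 0.05 in males and -0.03 in females, against 0.01 and -0.02 over all genes. Of the 21 calls in males 15 remained in every fit that left out 1 array, and of the 4 in females 1 did, that of Cyp4f18. None of the 57 passed the test of the difference between the sexes (lowest limma adjusted p = 0.216, 3 at an unadjusted p below 0.05).

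Upstream of the members, 3 of 13 genes that release arachidonic acid or cleave related phospholipids rose in males and 1 in females. Pla2g4a, the cytosolic phospholipase that supplies arachidonic acid to both branches, showed -0.08 ± 0.12 (SE, adjusted p = 0.717) in males and 0.14 ± 0.15 (adjusted p = 0.788) in females. Pla2g7, a secreted phospholipase of macrophages that breaks down platelet-activating factor rather than freeing arachidonic acid, rose by 2.40 ± 0.33 in males, 5.27-fold (adjusted p = 3.69e-05), and showed 1.46 (adjusted p = 0.0644) in females. The lysosomal Pla2g15 rose by 0.58 in males, a call lost without male sham mouse 4 (adjusted p = 0.0624) or 5 (0.0628). Pla2g4c rose by 0.22 in males and 0.39 in females, and its call was lost in 12 of the 19 fits that left out 1 array in males (adjusted p up to 0.104) and in 4 in females (up to 0.151). Of 4 genes that return arachidonic acid to membranes, 2 rose in males, Acsl4 by 0.67 and Lpcat2, an acyltransferase that also makes platelet-activating factor, by 1.92. Lpcat2 rose by 1.27 in females too (adjusted p = 0.0381), a call lost in 6 of 19 such fits (up to 0.209).

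Among the other prostanoid synthases, 1 of 4 rose in males and 0 in females. That gene was Tbxas1, thromboxane synthase, which is found in platelets and macrophages, and its difference was 0.95 ± 0.19 in males, 1.93-fold (limma adjusted p = 0.00154), beside 0.37 (adjusted p = 0.593) in females. Of 5 platelet markers 0 changed in either sex, with a list mean of 6.17 to 7.33 in male sham, 6.52 to 7.54 in male PPE, 7.06 to 7.31 in female sham and 7.08 to 7.23 in female PPE mice, and Gp6, the platelet collagen receptor, was above background on no array. The part of platelets and macrophages in the Tbxas1 values was not tested. The constitutive prostaglandin E synthases Ptges2 and Ptges3 showed -0.04 and 0.13 in males and -0.08 and -0.14 in females, with adjusted p-values from 0.444 to 0.838. Of the 5 other lipoxygenases 0 were called in either sex, and Alox12 and Alox12b showed 0.02 each in males. Apart from Alox12, above background on 7 of the 19 arrays, these lipoxygenases were above background on no array. A change in them could have gone undetected.

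Of 6 genes that process or export cysteinyl leukotrienes, 1 rose and 3 fell in males and 0 changed in females. Dpep2, a dipeptidase that trims leukotriene D, rose by 0.79 in males (limma adjusted p = 0.00314), while its relative Dpep1 fell by 1.00 (adjusted p = 0.0107). Mgst3, a microsomal glutathione transferase, fell by 0.44 in males, a call lost without male sham mouse 4 (adjusted p = 0.0541) or 5 (0.0654). The exporter Abcc1 fell by 0.31, a call lost in 15 of 19 fits that left out 1 array (up to 0.152). Ggt5, which starts the trimming of leukotriene C, showed 0.22 in males (adjusted p = 0.0503).

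Among receptors, 4 of the 6 for leukotrienes and lipoxins or resolvins rose in males and 1 in females. Ltb4r1, the leukotriene B receptor of neutrophils and other leukocytes, rose by 0.81 ± 0.16 in males (adjusted p = 0.000965) and showed 0.30 in females (adjusted p = 0.587). It was above background in 1 of 5 male sham and all 7 male PPE mice, so that its difference in males is measured against sham values mostly at background. In females it was above background in 0 of 3 sham and 0 of 4 PPE mice, so that a change there could have gone undetected. Of the receptors for cysteinyl leukotrienes, Cysltr1 rose 3.05-fold in males (difference 1.61 ± 0.28, adjusted p = 0.000322). Cysltr2 was above background in 0 of 5 male and 0 of 3 female sham mice, and in 6 of 7 male and 4 of 4 female PPE mice. Against the background level of the sham arrays it was at least 1.62-fold higher in males (measured difference 1.08 ± 0.18, adjusted p = 0.000201) and at least 1.63-fold higher in females (1.02 ± 0.23, adjusted p = 0.0158). The call in females was lost without female sham mouse 1 (0.102), female sham mouse 2 (0.0634) or female PPE mouse 1 (0.0589). Cmklr1 rose by 0.32 in males, a call lost in 10 of 19 fits that left out 1 array (up to 0.128). Of the 9 prostanoid receptors, Ptger2 rose by 0.39 and Ptger4, a receptor of prostaglandin E, by 0.66 in males, and the thromboxane receptor Tbxa2r fell by 0.37. The call of Ptger2 was lost without male sham mouse 1 (0.0559) or 5 (0.0568). Ptger1 showed 0.04 in males and 0.14 in females.

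**Figure D4:**
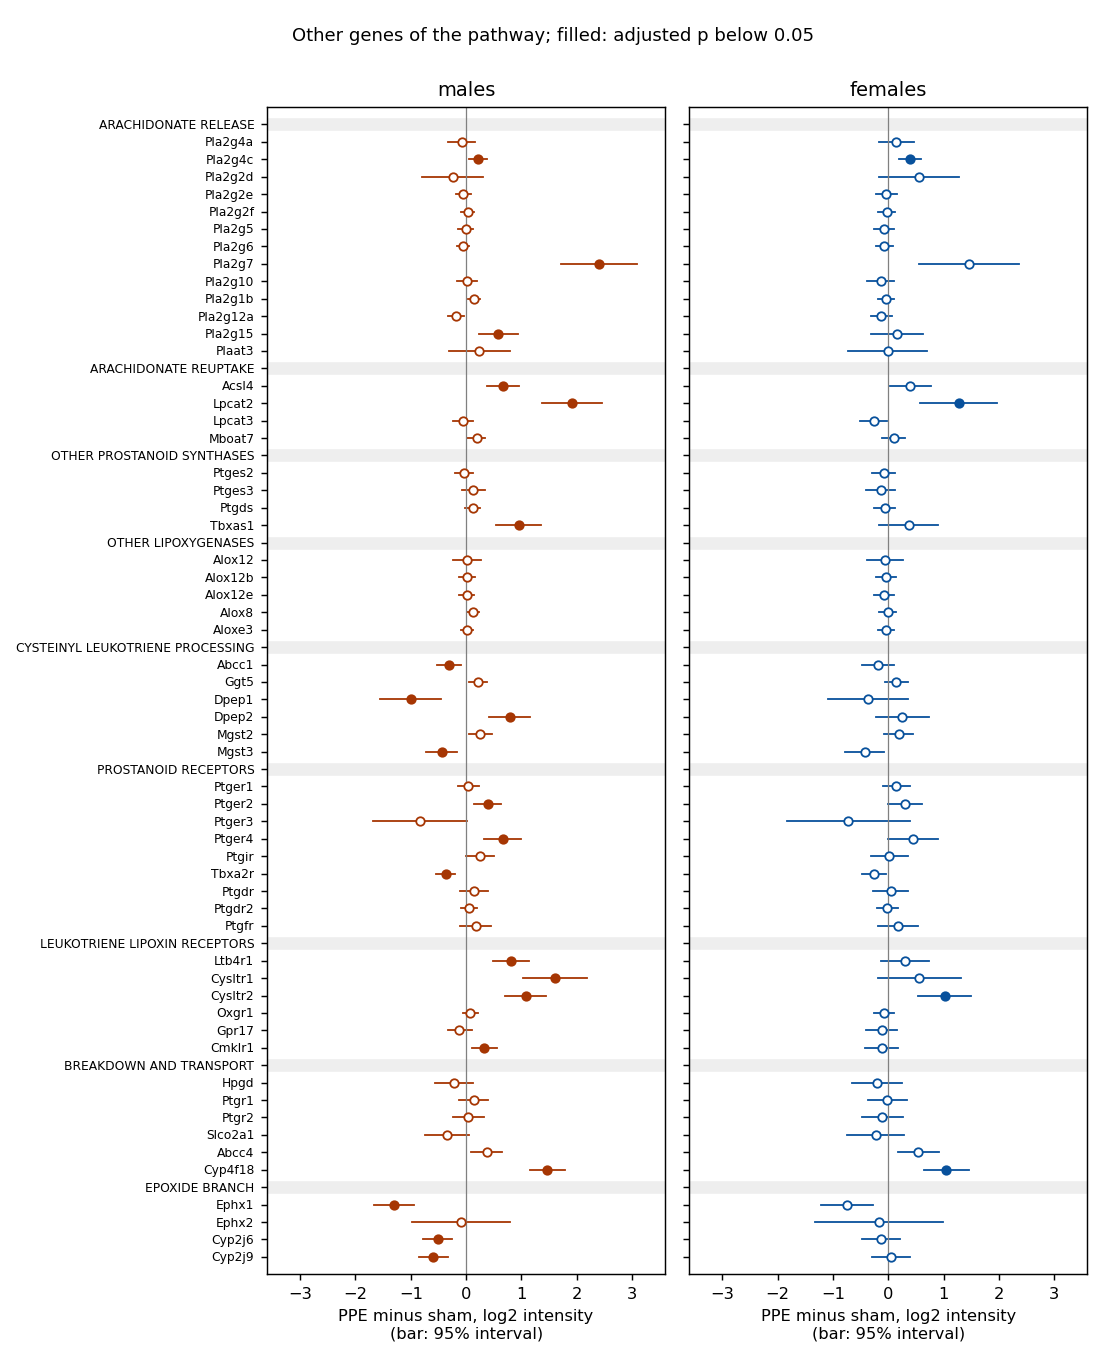
PPE minus sham difference (log2, horizontal axis) of the other measured genes of the pathway in males and in females, grouped by role, with filled points for an adjusted p below 0.05. Pla2g7, Lpcat2, Cysltr1 and Cyp4f18 lie farthest to the right in males and Ephx1 farthest to the left.

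Of 6 genes for breakdown and transport, 1 rose in each sex, Cyp4f18, a cytochrome P450 of neutrophils that inactivates leukotriene B. Its difference was 1.47 ± 0.15 in males, 2.77-fold (limma adjusted p = 1.97e-06), and 1.05 ± 0.19 in females, 2.08-fold (adjusted p = 0.00521), beside the neutrophil markers given above, whose part in it was not tested. Hpgd, which inactivates prostaglandins, showed -0.22 and -0.21, and Ptgr1 0.14 and -0.02, in males and females, all with adjusted p-values above 0.4. In the branch that makes and hydrolyses epoxides of arachidonic acid, 3 of 4 genes fell in males and 0 changed in females. Ephx1, an epoxide hydrolase, fell 2.48-fold in males (-1.31 ± 0.17, adjusted p = 2.25e-05) and showed -0.74 in females (adjusted p = 0.0734), and the epoxygenases Cyp2j6 and Cyp2j9 fell by 0.51 and 0.59 in males. Ephx2, the soluble hydrolase, showed -0.10 in males (adjusted p = 0.921), with male sham mouse 4 at 11.50 against 8.89 to 9.58 on the other male sham arrays, the same array on which the adipocyte mean was 12.50.

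The genes whose values most resembled those of the changed members over the 19 arrays were sought after each array had been set against the mean of its sex, by the root mean square difference in log2 units over 17006 other protein-coding genes with a RefSeq entry, predicted genes left out. Closest to Ptgis were Ltbp4, a protein of elastic fibres, at 0.20, and Tns2 and Itga3, adhesion proteins, at 0.21 each, where Ptgis itself varied by 0.74. Their PPE differences were -1.56, -1.43 and -1.28 in males and -1.26, -0.62 and -1.02 in females. Closest to Alox5ap, which varied by 0.90, were the chemokine Cxcl16 at 0.23, Pld4 at 0.23 and Ms4a7 at 0.24, with differences of 1.70, 1.96 and 1.62 in males and 0.79, 1.11 and 0.56 in females. Closest to Alox5, which varied by only 0.21, were Aqp9, Siglecf and Cdk2ap2 at 0.10 each. PPE and sham arrays entered the search together, so PPE differences near those of the member follow in part from how these genes were chosen. These likenesses are descriptions of 19 arrays and carry no test.

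The remaining marker lists were read as a check of what else the segment held. Of 7 adipocyte markers and 5 mesothelial markers 0 changed in either sex. In females the median difference of the adipocyte markers was -0.84, and their mean was 10.34 to 11.16 in sham and 9.02 to 10.69 in PPE mice, with 3 of 4 PPE mice below every sham mouse. The part of fat in the Ptgis values of either sex was not tested. The mesothelial genes Msln and Krt19 were above background on no array. Of 7 genes used as markers of peritoneal macrophages, 1 rose and 2 fell in males and 1 rose and 1 fell in females. Gata6, a gene also used by vascular smooth muscle, fell in both sexes (-1.29 and -0.91), Garnl3 fell in males (-0.29), and the acute phase gene Saa3 rose in both (4.00 and 3.41).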

How the data were processed

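Each of the 19 arrays held RNA of 1 mouse (100 ng, WT PLUS kit), per the labels' protocols, so that replicates are separate animals. The deposited values are log2 intensities. The submitters' processing notes name the Transcriptome Analysis Console and the mm10 build for them, while version, summarisation and background correction stay not given in the sources used here. Of 65956 probe sets, 30604 had 1 gene symbol in the platform annotation, 2146 had several and 33206 were not listed. Symbols were updated for 827 through gene identifiers of RefSeq GRCm38.p6, and the brightest probe set was kept for the 355 genes with more than 1, which left 30142 genes. The main test kept dim genes. At most 2.5% of values were identical between 2 arrays.

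Group means were fitted by lmFit and eBayes of limma 3.58.1 (R 4.3.3; 4 groups, no covariate), with contrasts of PPE minus sham in each sex and their difference, Benjamini-Hochberg adjustment over 30142 genes and a call at 0.05. The fit was tested on simulated data. Exact permutation tests were two-sided. The number of arrays limits the precision. Named were all members, the first 2 measured genes and every called gene of each pathway list, up to 3 genes per marker list, and for each called member the 3 genes most like it; other names are marked as chosen after their values were seen. The members and lists were chosen with earlier results of these data known. Alternatives were another normalization, a filter on dim genes (above the 95th percentile of 1225 olfactory receptor genes in 3 arrays, passed by 18706 genes and all 9 members), the mean of probe sets, all probe sets, a trended robust prior, array weights, 1 sex alone, a replicate block, and leaving out arrays.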

Additional observations from a re-analysis of the deposited data

Results flagged for a closer look

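Among 120 groups of 4 to 7 arrays over 40 genes (the members and the named genes of the pathway lists), 9 held an array far from the others by Dixon's test at 95%, where chance flags about 1 in 20. Ptgis was the only member among them: male sham mouse 5 stood at 11.31 while the other male sham mice had 9.98 to 10.16, and without it the male fall of Ptgis was -1.24. Male sham mouse 4 stood apart for Ephx2 at 11.50 (others 8.89 to 9.58) and for the receptor Ptger4 at 7.18 (others 7.57 to 7.69). For the exporter Abcc1, male sham mouse 5 was high at 10.04 (others 9.57 to 9.70) and male PPE mouse 2 was high at 9.80 (others 9.15 to 9.42). The phospholipase Pla2g4a was low in male PPE mouse 1 at 10.20 (others 10.56 to 10.68). In female PPE mice, Ptges3 was low in mouse 3 at 12.13 (others 12.38 to 12.43), Ggt5 was high in mouse 4 at 7.68 (others 7.41 to 7.43) and Ptger1 was low in mouse 2 at 7.31 (others 7.51 to 7.55).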

How the results depend on the processing

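The 3 calls in males (Ptgis, Alox5 and Alox5ap) held under every alternative run, with 3 to 4 members called when single arrays were left out, and the difference between the sexes had 0 calls throughout. The count of 1 in females was 3 with array weights (Ptgis, Alox5ap and Ptgs2), 2 with the female arrays alone and 2 without male sham mice 4 and 5 and male PPE mouse 1 (Ptgis and Alox5ap in both), and 0 to 2 when single arrays were left out. With a replicate block it was 0 (Ptgis -1.23, adjusted p = 0.0606), and the block left the 3 male calls in place. Sham and PPE mice of a sex with the same number had correlations from -0.32 to 0.24 between their deviations from the group means. Mice with different numbers were not compared, so this does not settle whether the numbers pair the mice. With the block, male PPE mice 6 and 7 and female PPE mouse 4, whose numbers no sham mouse of their sex shares, add nothing to the difference. A call lost there thus rests on fewer mice, and the differences were smaller for some of these genes and larger for others. In that fit 8 pathway genes lost their calls in males, Cyp2j6, Dpep1, Tbxa2r, Pla2g4c, Pla2g15, Abcc1, Mgst3 and Cmklr1 (adjusted p 0.056 to 0.189), and 3 in females, Pla2g4c, Lpcat2 and Cysltr2 (0.0631 to 0.1), while Abcc4, named after its values were seen, gained one in each sex (0.0333 and 0.0297).

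Some uncalled differences changed sign, most of them near 0 in the main fit. In males Lta4h was -0.01 with array weights and -0.06 without the 3 arrays, and Ltc4s -0.12 and -0.10. In females Lta4h was -0.07 and Ltc4s 0.02 after quantile normalization. The difference between the sexes was -0.08 and -0.10 for Lta4h and -0.07 and -0.09 for Ltc4s (array weights, without the 3 arrays), and 0.09 for Hpgds after quantile normalization. For Alox15 it was -0.29 in the main fit and 0.27 with the replicate block, to which female PPE mouse 4, the highest for Alox15, adds nothing. The female difference of Alox15 was 0.24 with the block and 0.24 without that mouse. Leaving out single arrays gave -0.01 to 0.23 for Ltc4s in males, -0.04 to 0.08 for Lta4h and -0.19 to 0.18 for Ltc4s in females, and for the difference between the sexes -0.62 to 0.06 for Ptgs2, -0.51 to 0.13 for Alox15, -0.07 to 0.29 for Ltc4s and -0.25 to 0.23 for Hpgds. The cause of the other changes was not tested.

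Over all genes the 5923 calls in males were 3535 with the replicate block and 10186 with every probe set tested. The 1273 in females were 877 with median centring, 639 with the block, 1970 with the female arrays alone, 2454 without the 3 arrays, 3951 with array weights and 368 to 1613 when single arrays were left out. The 163 for the difference were 0 with the block (2211 at an unadjusted p below 0.05), 79 without the 3 arrays, 250 without dim genes, 274 with median centring, 554 with every probe set, 931 with array weights and 0 to 426 when single arrays were left out. Of the other pathway genes, the 4 calls in females were 2 with every probe set or the block, 7 with the female arrays alone, 8 without the 3 arrays, 11 with array weights and 1 to 6 when single arrays were left out, and the 21 in males were 14 with the block, 27 after quantile normalization and 16 to 25 when single arrays were left out. Of all calls in males 49.2% were higher, against 60.3% with median centring, and in females 65.6%, against 44.1% after quantile normalization. Low signal limits what can be said of Alox15, Ltc4s and Alox5, and of Cysltr2, Ltb4r1 and other pathway genes at background on some arrays.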
